A study of Mus musculus with 8 samples.

Results

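The 7 genes described here mark antibody-secreting plasma cells: Igha, Igkc, Jchain, Mzb1, Derl3, Tnfrsf17 and Pou2af1. They were chosen by name, and 7 of 7 had a row in the matrices, which held 19065 genes. The libraries came from the colon of 8 C57BL/6 mice, 1 library per mouse, labelled as biological replicates. One diet held corn oil/cellulose (4 animals) and the other fish oil/pectin (4 animals), each given for 3 weeks; below, the animals are called corn oil mice and fish oil mice, numbered as labelled. Each library was made from 2 sections of 50 µm of a formalin-fixed, paraffin-embedded colon roll with a probe-based kit, which counts RNA through gene-specific probe pairs as unique molecular identifiers (UMIs). Age, sex and further genotype are not given in the sources used here.

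Plasma cells are the main lymphoid secretory cells of the gut wall. They sit in the lamina propria under the epithelium and release dimeric IgA, whose heavy chain constant region is encoded by Igha and whose kappa light chain constant region is encoded by Igkc. The J chain, from Jchain, joins IgA monomers and lets the polymeric immunoglobulin receptor of epithelial cells carry the antibody to the lumen. Mzb1 is an endoplasmic reticulum (ER) chaperone partner that helps immunoglobulin assembly, and Derl3 belongs to the machinery that removes misfolded proteins from the ER. Tnfrsf17 is the survival receptor BCMA of plasma cells, and Pou2af1 is the coactivator OBF-1, which works with octamer-binding factors at immunoglobulin promoters.

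In GRCm38 with GENCODE M21, Igha (ENSMUSG00000095079) lies on chromosome 12 at 113254830 to 113260236 on the minus strand. Igkc (ENSMUSG00000076609) lies on chromosome 6 at 70726435 to 70726966 on the plus strand. Both are annotated as immunoglobulin constant region genes. Jchain (ENSMUSG00000067149) is a protein-coding gene on chromosome 5 at 88519809 to 88527891, minus strand. Derl3 lies on chromosome 10 at 75893413 to 75895941, Tnfrsf17 on chromosome 16 at 11313812 to 11320074 and Pou2af1 on chromosome 9 at 51213708 to 51240080, all on the plus strand.

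RefSeq promoter windows were used for 4 of the 7 genes. No window of Igha, Igkc or Mzb1 was used, so their promoters were not searched. The 250 bases before the start are shown for 3 of the 4, because they differ in the response elements of the secretory pathway they hold. Searched on both strands were the octamer ATGCAAAT, the ER stress element (CCAAT, then 9 bases of any kind, then CCACG), the unfolded protein response element core TGACGTGG and the E-box CACGTG. Capitals mark the matches, and the windows are in GRCm38.p6.
Derl3, chr10:75893148-75893397, plus strand: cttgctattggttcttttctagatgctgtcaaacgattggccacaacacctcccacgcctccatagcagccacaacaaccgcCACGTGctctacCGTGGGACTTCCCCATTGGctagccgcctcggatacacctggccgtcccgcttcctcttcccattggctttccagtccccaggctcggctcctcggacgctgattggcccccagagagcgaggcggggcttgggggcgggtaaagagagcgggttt
Pou2af1, chr9:51213440-51213689, plus strand: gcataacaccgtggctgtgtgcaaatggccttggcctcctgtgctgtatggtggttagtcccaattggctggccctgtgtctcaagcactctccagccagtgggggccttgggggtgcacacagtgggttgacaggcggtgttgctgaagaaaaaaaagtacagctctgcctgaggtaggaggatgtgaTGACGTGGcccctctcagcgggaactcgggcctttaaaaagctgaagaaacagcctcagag
Jchain, chr5:88527898-88528147, minus strand: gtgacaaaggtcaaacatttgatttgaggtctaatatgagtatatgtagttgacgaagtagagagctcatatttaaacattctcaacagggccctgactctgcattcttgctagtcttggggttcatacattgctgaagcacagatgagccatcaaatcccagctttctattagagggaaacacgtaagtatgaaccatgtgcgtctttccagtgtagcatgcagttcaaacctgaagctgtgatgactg

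The Derl3 window held an ER stress element on the minus strand, 156 to 138 bases before the start, and an E-box 168 to 163 bases before it. The Pou2af1 window held an unfolded protein response element core, 61 to 54 bases before the start. Of 32851 promoter windows of this length, 0.113% held the ER stress element, 0.563% the response element core, 6.02% the E-box and 1.60% the octamer. The windows of Jchain and Tnfrsf17 held none of these letters. These matches are letters in a window and say nothing of binding.

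The libraries held 34758 to 245476 UMIs each, in 106 to 5180 cell barcodes, and the series held 1160832 UMIs in 8588 barcodes. Corn oil mouse 1 stood apart, with 5180 barcodes at a median of 26 UMIs, while the other libraries had medians from 93 to 528.5 UMIs. Haemoglobin genes took from 0.0135% of UMIs in corn oil mouse 3 to 54.3% in fish oil mouse 3. Mitochondrially encoded genes took 36.7% in corn oil mouse 1 and 2.90% to 24.7% in the others. The sample titles name colonocytes. The 10 epithelial markers together gave from 2244 to 13403 counts per 1000000 UMIs of the library (CPM) over the 8 libraries, beside red cell, stromal and muscle RNA. The labels give no pools, so libraries were grouped by how often they shared droplet barcodes. Within 2 groups of 4 libraries 189 droplet barcodes were shared, against 24 between them, and these inferred groups are called pools. The 2 counts follow from the way the groups were made and are no separate test of them. Pool 1 held corn oil mice 1, 2 and 3 with fish oil mouse 1, and pool 2 the other mice, so pool and diet are partly confounded. In all, 6 full cell barcodes occurred in a pair of libraries, 5 of them in corn oil mice 1 and 4 and 1 in corn oil mouse 2 and fish oil mouse 2, and 0 within a pool.

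The 7 genes were rare. Together they gave 509 UMIs in 396 of 8588 barcodes, and Igha and Igkc made up nearly all of them with 281 and 193. Jchain had 17 UMIs, Mzb1 8, Tnfrsf17 4, Pou2af1 4 and Derl3 2. Since the number of probe pairs differs between genes, these totals are not an order of RNA amounts. Corn oil mouse 1 held 51.9% of the 509 UMIs.

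Igha was found in 7 of 8 mice. In corn oil mice 1 to 4 it had 143, 0, 6 and 9 UMIs, which is 741, 0, 73.7 and 36.7 CPM. Fish oil mice 1 to 4 had 6, 71, 31 and 15 UMIs, which is 173, 460, 205 and 74.7 CPM. Corn oil mouse 1 was highest and fish oil mouse 2 next, and the diets overlapped only through corn oil mouse 1. The 0 of corn oil mouse 2 allows up to 30.0 CPM at 3 counts, and its exact Poisson upper bound at 95% confidence was 36.9. Such intervals cover counting error only. The fish oil mice, at 74.7 or more, lay above corn oil mice 2, 3 and 4, although the lowest of them differed from mouse 3 by less than counting error.

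Igkc followed the same order at the top. It had 106, 3, 7 and 3 UMIs in corn oil mice 1 to 4, which is 549, 30.0, 86.0 and 12.2 CPM. In fish oil mice 1 to 4 it had 3, 47, 17 and 7 UMIs, which is 86.3, 304, 112 and 34.9 CPM. Neighbours below the highest 2 mice had overlapping counting intervals, for example 65.5 to 180 in fish oil mouse 3 and 34.6 to 177 in corn oil mouse 3. Igha was 57.4% of the sum of both genes in corn oil mouse 1 (exact binomial interval 51.0% to 63.7%) and 60.2% in fish oil mouse 2 (50.7% to 69.1%).

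**Figure D1:**
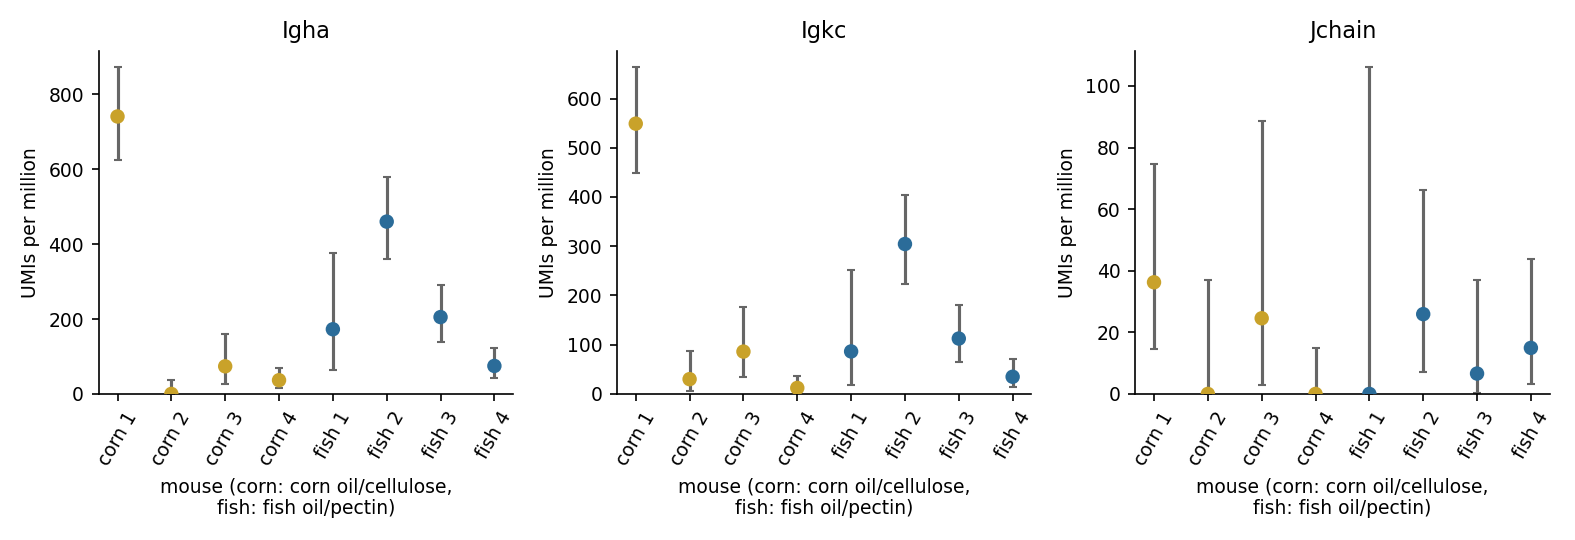
CPM of Igha, Igkc and Jchain in each of the 8 mice, with exact Poisson intervals at 95% that cover counting error only (yellow, corn oil/cellulose; blue, fish oil/pectin). Igha and Igkc were highest in corn oil mouse 1, at 741 and 549, and next in fish oil mouse 2, at 460 and 304.

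Jchain had 7, 0, 2 and 0 UMIs in corn oil mice 1 to 4 and 0, 4, 1 and 3 in fish oil mice 1 to 4. At these counts no order among the mice was detectable, since its largest value of 36.3 CPM had an interval of 14.6 to 74.7. Mzb1 had 4 and 2 UMIs in corn oil mice 1 and 2 and 1 each in fish oil mice 2 and 3. Tnfrsf17 had 2 UMIs in corn oil mouse 1 and 2 in fish oil mouse 3. Pou2af1 had 1 UMI in each of corn oil mice 3 and 4 and 2 in fish oil mouse 2, and both Derl3 UMIs lay in corn oil mouse 1.

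No difference between diets was detected for any of the 7 genes. Igha stood at 213 ± 353 CPM in corn oil and 228 ± 164 in fish oil mice (SD, n = 4 each), and Igkc at 169 ± 255 and 135 ± 118 (SD, n = 4 each). Sums per mouse, over its whole set of barcodes, were compared by edgeR's quasi-likelihood test, fitted over all genes past a filter on low counts, with Benjamini-Hochberg adjustment. The log2 fold change, fish oil over corn oil, was 0.76 (SE 1.17) for Igha and 0.33 (SE 1.09) for Igkc, both with an edgeR adjusted p of 0.999. In tissue sums, fewer plasma cells and less RNA per cell cannot be told apart. Of the 7 genes 2 passed the filter, and 0 were called. The test called 0 of 4471 genes (0%), with 108 at an unadjusted p under 0.05, and DESeq2 also called 0, with 133.

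The other 5 genes were read from the same fit without a filter, which called 4 of 18121 genes (0.0221%), none of them a member. Jchain differed by 0.14 (SE 1.00, edgeR adjusted p = 0.994) on the log2 scale. Its mean was 15.2 ± 18.2 CPM in corn oil and 11.9 ± 11.2 in fish oil mice (SD, n = 4 each). For Mzb1, with 6 UMIs in all corn oil mice and 2 in all fish oil mice, the ratio of counts per UMI sequenced was 0.382, with a counting interval of 0.0377 to 2.14. Derl3, Tnfrsf17 and Pou2af1 were at or under 3 UMIs in each diet, so no fold is given and a diet difference was not detectable at this depth.

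The value for Igha rested on corn oil mouse 1. Without that mouse the log2 fold change was 3.48 (SE 0.99), with an unadjusted p of 0.00328 and an edgeR adjusted p of 0.999 over all genes. For Igkc it was 2.63 (SE 1.01, unadjusted p = 0.0223, edgeR adjusted p = 0.999). Leaving out any other single mouse gave 0.28 to 1.19 for Igha and -0.39 to 0.80 for Igkc. Scaling by library totals alone gave 0.01 for Igha and -0.41 for Igkc, a setting that moved the median of all tested genes from -0.03 to -0.21. With the pool in the fit Igha was at 1.52 (SE 2.06) and Igkc at 1.48 (SE 1.98). Within pools, as differences of mean log2 CPM with a prior count of 2, Igha differed by 0.94 in pool 1 and 2.05 in pool 2. Igkc differed by -0.43 and 2.27, and each of these values rests on 1 mouse of one diet.

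**Figure D2:**
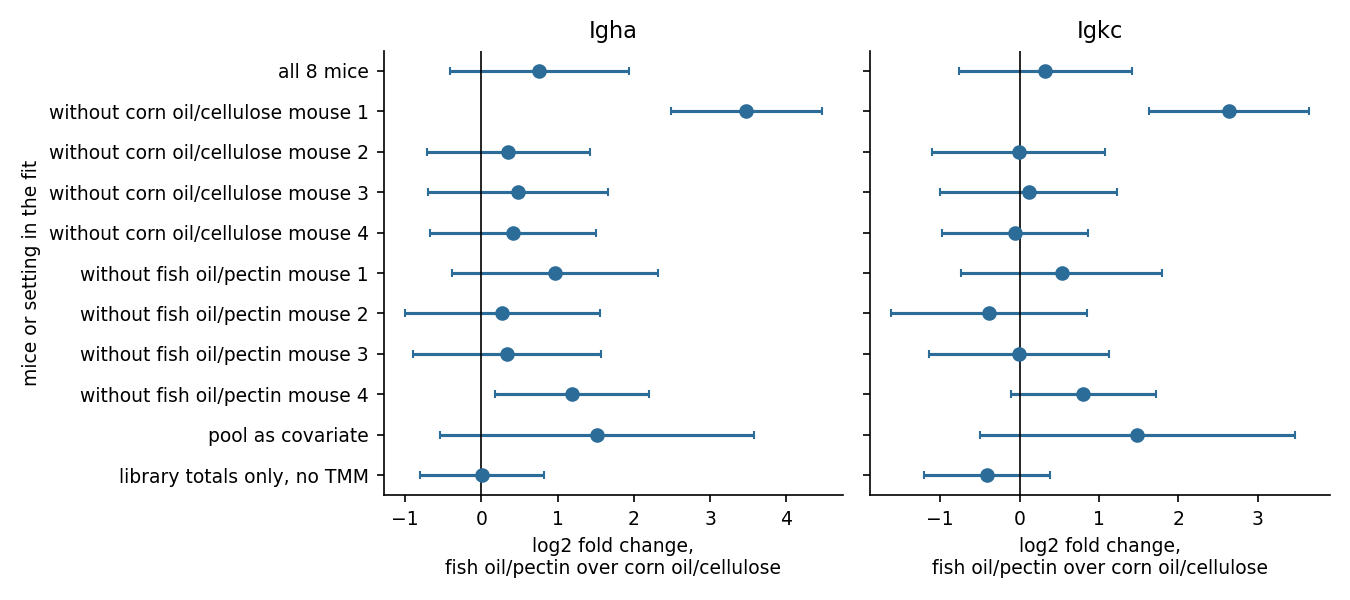
Log2 fold change of Igha and Igkc, fish oil over corn oil, from the edgeR fit over all genes, with bars of 1 standard error, for all 8 mice, with each mouse left out and under 2 other settings. The value of Igha moved from 0.76 to 3.48, and that of Igkc from 0.33 to 2.63, when corn oil mouse 1 was left out.

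The 2 mice highest in Igha and Igkc were also highest in smooth muscle RNA. The list of 5 contractile genes gave 2631 CPM in corn oil mouse 1 and 2248 in fish oil mouse 2, against 169 to 518 in the other 6. All 5 genes had UMIs in each of the 8 libraries. Tagln, the actin-binding protein transgelin, had the most UMIs of the list over all mice, with 123 and 84 in these mice and 3 to 21 in the others. In fish oil mouse 2 Myh11, another gene of the list, had more, with 93. The part of this in the immunoglobulin values was not tested.

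Most immunoglobulin RNA lay in barcodes with 1 UMI of it. Of the 396 barcodes with any of the 7 genes, 85.1% held exactly 1 UMI of them, and without corn oil mouse 1 the share was 79.3% of 188. Igha was found in 227 barcodes, 31 of them with at least 2 UMIs, 6 with at least 3 and 3 with at least 5. Igkc was found in 155 barcodes, 19 with at least 2 UMIs, 7 with at least 3 and 2 with at least 5. The median depth of the barcodes with Igha was 73 UMIs, and of those with Igkc also 73.

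To set a scale, each mouse's UMIs of a gene were spread over its barcodes in proportion to depth, and the barcodes that would hold a UMI were counted from Poisson probabilities. Igha was seen in 0.842 and Igkc in 0.827 of the barcodes that such even spread gives (270 and 187 barcodes). At least 2 UMIs were seen in 31 barcodes for Igha where even spread gives 10.4, and in 19 for Igkc where it gives 5.17. At least 3 were seen in 6 and 7 barcodes, where it gives 0.805 and 0.306. Without corn oil mouse 1 these were 4 and 4, against 0.614 and 0.223. Both genes thus lay somewhat closer together than even spread, through few barcodes. Jchain was seen in 16 barcodes, where even spread gives 16.9.

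The genes with the most UMIs of other lists, counted in the same way, ranged widely. Hbb-bs, a beta globin of red cells, was seen in 0.278 and Muc2, the goblet cell mucin, in 0.586 of the barcodes of even spread. Col3a1, a fibroblast collagen, was at 0.695, the epithelial keratin Krt8 at 0.778, Pigr at 0.812, the ER disulfide isomerase Txndc5 at 0.861 and Tagln at 0.869. Igha and Igkc lay with the last 3. The ratio is lower for genes with many UMIs in each positive barcode, so it ranks spread and not specificity.

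**Figure D3:**
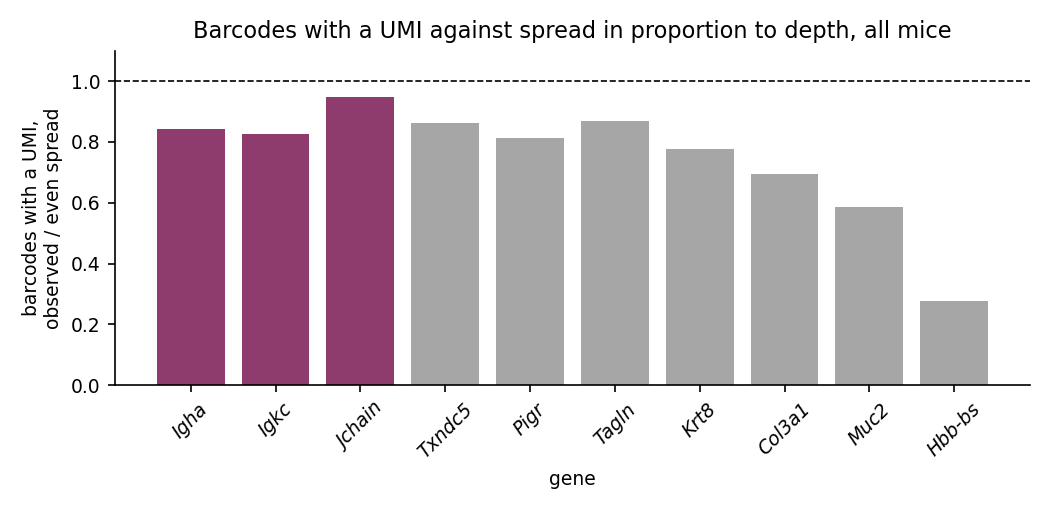
Barcodes with at least 1 UMI of a gene, divided by the number that spread in proportion to barcode depth would give, over all 8 mice (purple, members; grey, the gene with the most UMIs of 7 other lists; dashed line, even spread). Igha and Igkc stood at 0.842 and 0.827, above Muc2 at 0.586 and Hbb-bs at 0.278.

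Only 3 barcodes held at least 5 UMIs of the 7 genes, and they held 46 of the 509 UMIs, or 9.04%. In corn oil mouse 1, a barcode of 125 UMIs held 9 of Igha and 12 of Igkc, 16.8% of its RNA, with 1 UMI of the kappa variable segment Igkv13-84. That barcode held 0 UMIs of the other members, of the further plasma cell genes and of the ER protein load genes (lists described below). In the same mouse, a barcode of 46 UMIs held 9 of Igha, 5 of Igkc and 2 of Mzb1, 34.8% of its RNA. It also held 3 UMIs of Sec11c, a signal peptidase subunit, and 1 of the MHC class II invariant chain gene Cd74. Those 2 barcodes had 0 UMIs of the epithelial list, and 1 of them had 1 goblet UMI.

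In fish oil mouse 4, a barcode of 658 UMIs held 7 of Igha and 2 of Jchain, and 0 of Igkc. It also held 3 UMIs of Xbp1, the transcription factor of the secretory programme, 1 of Irf4, a plasma cell transcription factor, 2 of the elongation factor Ell2, 1 of Eaf2, 2 of the lymphocyte adaptor Lax1 and 4 of Txndc5. Its epithelial and goblet lists stood at 0 UMIs. It also held 3 UMIs of the fibroblast list. These 7 Igha UMIs were 46.7% of that gene's UMIs in the mouse. Another barcode of corn oil mouse 1, with 68 UMIs, held 1 UMI each of Igha, Derl3, Tnfrsf17, Xbp1, Txndc5, the ER stress gene Herpud1 and Cd37, a leukocyte tetraspanin. These 4 barcodes were picked for their member UMIs, so those UMIs describe them and test nothing. Both promoters shown above with an ER element, those of Derl3 and Pou2af1, belong to genes with at most 4 UMIs in the series.

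**Figure D4:**
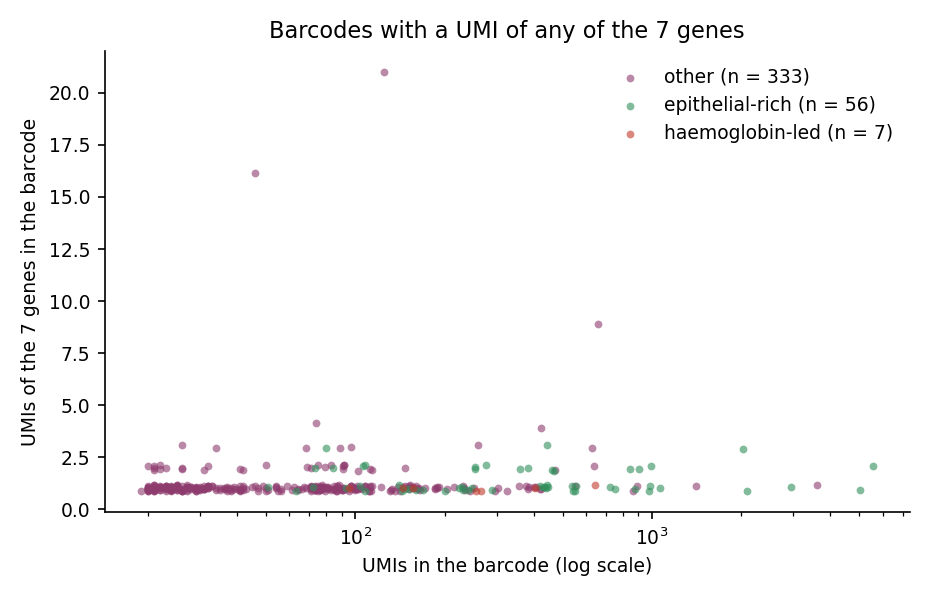
Each point is 1 of the 396 barcodes with a UMI of the 7 genes, by its total UMIs (log scale) and its UMIs of these genes, moved slightly up or down so that points do not hide each other; colours give the set of barcodes. Most lie at 1 UMI, and 3 barcodes stand out with 21, 16 and 9 UMIs at depths of 125, 46 and 658.

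Few barcodes held more than 1 member. Of 8588 barcodes 17 held at least 2 different members, in 6 of 8 mice, and 2 held at least 3, where even spread gives 17.3 and 0.394. Igha and Igkc shared 12 barcodes, against 13.6 from even spread and 5.04 from the product of their shares of positive barcodes in each mouse. Without corn oil mouse 1 the values were 7, 8.07 and 3.13. The count of shared barcodes thus lay below even spread and above the product of shares. Even spread follows depth alone and takes no account of sets of barcodes whose pooled Igha levels differed, described below. In fish oil mouse 2, with 54 Igha and 37 Igkc barcodes, 1 barcode held both where even spread gives 5.65, while fish oil mouse 3 had 3 where it gives 1.05. Of the 21 pairs of members 8 were seen together at all. Igha with Mzb1 and Igha with Tnfrsf17 came together in 2 barcodes each (even spread 0.417 and 0.236), and Derl3 with Tnfrsf17 in 1 (even spread 0.00165). Jchain was found once with Igha and 0 times with Igkc, where even spread gives 1.42 and 1.04.

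Genes raised in those 17 barcodes could be ranked only among 71 genes with at least 10 UMIs there from at least 3 mice, a limit that favours abundant genes, so the ranking says nothing of the sparser plasma cell genes. By ratio of CPM to all other barcodes, the first were Tardbp, an RNA-binding protein, at 8.18, Sfi1 at 4.52 and Slc26a3, the chloride exchanger of surface colonocytes, at 4.16. App (3.79), Eif4a2 (3.70), Slc6a8, Spink1 (3.23), Foxo3 (3.21), Capn5 (3.13) and the epithelial adhesion gene Epcam (3.12) followed. Of the UMIs in the 17 barcodes, 81.8% came from 4 barcodes rich in epithelial RNA, with a median depth of 1435 UMIs. The other 13 had a median of 83.

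To see which barcodes carried immunoglobulin RNA, barcodes were divided into those with at least 50% haemoglobin (1190), those with at least 3 UMIs of the epithelial list and less haemoglobin (765), and the rest (6633). These sets are ranges and not cell types, and 17 barcodes lay between 45% and 55% haemoglobin. The cut at 3 epithelial UMIs is harder to reach for shallow barcodes, so the rest also holds shallow barcodes with epithelial RNA. In corn oil mouse 1 the epithelial gene Krt8 was seen in 327 barcodes, while 40 barcodes were epithelial-rich. Igha was found in 0.420% of haemoglobin-led barcodes (exact interval 0.137% to 0.978%), 3.27% of epithelial-rich ones and 2.97% of the rest, at median depths of 255.5, 383 and 30 UMIs. Red cells and epithelium are not known to make immunoglobulin, so the first 2 sets were compared with the rest, but how much of their immunoglobulin RNA is background was not tested.

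As CPM over UMIs other than haemoglobin, Igha was at 106 (34.3 to 247) in haemoglobin-led, 84.9 (59.1 to 118) in epithelial-rich and 571 (501 to 648) in the other barcodes. For Igkc the values were 42.3 (5.12 to 153), 89.7 (63.2 to 124) and 365 (310 to 427). These sums pool mice that differ in level and in the size of each set, and within mice the genes did not follow one order. Igha was higher in the rest than in epithelial-rich barcodes in 6 of 8 mice, lower in 1 and at 0 in both sets in 1. Igkc was higher in epithelial-rich barcodes in 6 of 8 mice, but outside fish oil mouse 2 on few UMIs. Corn oil mice 1, 2 and 4 had 4, 1 and 3 Igkc UMIs in that set, and fish oil mice 1 and 3 had 1 and 5. Igkc in fish oil mouse 2 was at 592 (345 to 947) in epithelial-rich barcodes and 474 (317 to 680) in the rest. In fish oil mouse 3 it was at 576 (187 to 1343) and 231 (115 to 413), and in corn oil mouse 1 at 723 (197 to 1850) and 582 (475 to 707). The intervals of the sets overlapped in each of these mice, so the pooled order of Igkc was not seen within them.

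For Igha, fish oil mouse 2 had 915 (691 to 1188) in the rest and 453 (241 to 774) in epithelial-rich barcodes. These intervals overlapped, which does not show that the levels are equal, and the difference was not tested. Without corn oil mouse 1, which held most barcodes of the rest, the pooled Igha level was 405 in the rest and 81.1 in epithelial-rich barcodes, on the same scale. Within fish oil mouse 4 Igha was at 350 (160 to 665) in the rest and 37.5 (13.8 to 81.7) in epithelial-rich barcodes, but 7 of the 9 UMIs in the rest lay in the barcode of 658 UMIs described above. Without that barcode, an alternative chosen after seeing the data, the rest was at 79.9 (9.68 to 289), and the intervals overlapped. In corn oil mouse 4 the order was not seen, with 38.6 (0.976 to 215) and 57.1 (24.6 to 112).

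**Figure D5:**
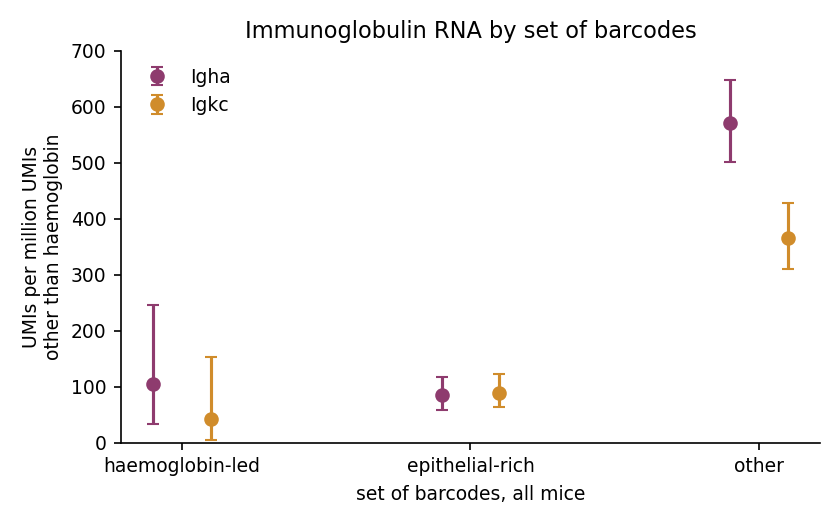
Igha and Igkc as CPM over UMIs other than haemoglobin in 3 sets of barcodes over all 8 mice, with exact Poisson intervals at 95% that cover counting error only. The haemoglobin-led and epithelial-rich sets lay between 42.3 and 106, and the other barcodes at 571 for Igha and 365 for Igkc. These are sums over mice, and within mice Igkc was higher in epithelial-rich than in other barcodes in 6 of 8. Of those mice, all but fish oil mouse 2 had only 1 to 5 Igkc UMIs in the epithelial-rich set.

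Whether the ratio of the pair differed between sets was not tested. Igha made up 61.0% of the sum of both genes in the other barcodes (56.0% to 65.9%) and 48.6% in epithelial-rich barcodes (36.7% to 60.7%). These intervals overlap, which does not show that the shares are equal. In fish oil mouse 2 the shares were 65.9% (54.8% to 75.8%) and 43.3% (25.5% to 62.6%). The share was also higher in the rest in corn oil mice 1 and 4 and fish oil mice 1, 3 and 4. Intervals overlapped in each of these, on as few as 1 UMI of the pair in a set. Corn oil mouse 2 had 0 Igha UMIs in both sets. Only corn oil mouse 3 ran the other way. There Igha was 3 of 8 UMIs of the pair in the rest (8.52% to 75.5%) and 3 of 5 in epithelial-rich barcodes (14.7% to 94.7%). Haemoglobin-led barcodes held 5 UMIs of Igha and 2 of Igkc, and 0 of the other 5 genes. Of the 17 Jchain UMIs 14 lay in the rest, as did 7 of the 8 Mzb1 UMIs.

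By barcode depth, the level fell steadily in some mice and not in others. Pooled over mice, Igha and Igkc together were at 1331 CPM in barcodes under 25 UMIs, 1587 from 25 to 50, 1106 from 50 to 100, 629 from 100 to 200 and 115 above that. In fish oil mouse 2 they were at 1538 CPM from 50 to 100 UMIs, 756 from 100 to 200 and 355 above 200, and the share of barcodes with either gene was 10.2%, 8.40% and 8.12%. The levels in these bins were, for fish oil mouse 3, 952, 557 and 84.2 CPM. Unlike the values by set of barcodes, these levels are over all UMIs of a bin, haemoglobin included. Haemoglobin-led barcodes had median depths of 258 and 261 UMIs in fish oil mice 2 and 3, against 84 and 93 in the rest. The part of haemoglobin in the fall with depth was not tested. In corn oil mouse 1, which held all barcodes under 25 UMIs, the 5 bins were at 1331, 1645, 949, 1420 and 294 CPM, with no steady fall below 200 UMIs. Of the 33 UMIs behind the 1420, 21 lay in the barcode of 125 UMIs described above, so that value rests largely on 1 barcode.

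Shares of positive barcodes per mouse ran from 0% to 5.66% for Igha and from 0.569% to 4.72% for Igkc. The highest Igha share, in corn oil mouse 3, came from 6 of 106 barcodes with a median depth of 506 UMIs, and corn oil mouse 1 was at 2.28% of 5180. The 0 of 448 barcodes in corn oil mouse 2 allows a share of up to 0.670% with a UMI. At 100 UMIs per barcode, with shallower barcodes left out, corn oil mice 1 to 4 had Igha in 2.86%, 0%, 0% and 0.380%, against 4.08%, 0%, 5.66% and 1.33% of the same barcodes at full depth. Fish oil mice 1 to 4 had 1.48%, 2.01%, 2.39% and 0.342%, against 2.96%, 3.36%, 3.59% and 2.40%. The depth step left out 4935 of 5180 barcodes in corn oil mouse 1 and none in corn oil mice 3 and 4 and fish oil mouse 4.

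Other immunoglobulin rows were sparser still. The 33 further rows, constant regions of other classes and 23 kappa variable segments among them, had 116 UMIs in all, 7 rows at 0. Ighm, the IgM heavy chain, had 24 UMIs, the lambda constant gene Iglc1 17, and the IgG chains Ighg1 and Ighg2b 11 and 7. Igkv8-30 had 7 and Igkv1-122 had 6. Ighd, the IgD chain of naive B cells, was at 0. None of these rows passed the count filter. The list summed to 192 and 194 CPM in corn oil mouse 1 and fish oil mouse 2, and to 283 in corn oil mouse 3, against 20.4 to 86.3 in the other 5 mice.

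B cell and T cell genes were also sparse. The 14 B cell genes had 153 UMIs, more than the 7 members in 3 mice (8 against 5 in corn oil mouse 2, 16 against 13 in corn oil mouse 4 and 11 against 9 in fish oil mouse 1). Of these UMIs 94 came from Cd74, which other antigen-presenting cells also express, and 21 from Ebf1 and 17 from Cd37. Bank1 had 6, Fcer2a and Ms4a1 3 each, and the B cell receptor subunits Cd79a and Cd79b 1 each. The 10 T cell genes had 30 UMIs. The myeloid list had 219, led by the complement gene C1qb with 50.

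Of the 16 further plasma cell genes, 5 passed the filter and 0 rose or fell between diets, with a median log2 fold change of 0.33 against -0.03 over all tested genes. Much of their RNA lay in haemoglobin-led or epithelial-rich barcodes. Tent5c, a poly(A) polymerase, had 1769 UMIs, 98.7% of them in haemoglobin-led barcodes. Xbp1 had 411 UMIs, Sec11c 128, Ell2 109 and the syndecan Sdc1 93, with 43.1%, 56.2%, 52.3% and 54.8% of them in epithelial-rich barcodes. Prdm1, the plasma cell regulator Blimp-1, had 13 UMIs, 53.8% of them in epithelial-rich barcodes. Irf4 had 12 UMIs, 0 of them in haemoglobin-led or epithelial-rich barcodes.

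The ER protein load list, 20 chaperones and degradation factors that goblet cells also need, had 14 tested genes, of which 0 rose or fell, with a median of 0.04. Txndc5 (192 UMIs), Edem1 (166), Herpud1 (158), Derl1 (113), Ssr4 (95) and Dnajc3 (94) led it. Txndc5 was at 0.16 (SE 0.47) and Edem1 at -0.07 (SE 0.49), both with an edgeR adjusted p of 0.999. In the IgA transport and niche list, 2 of 14 genes were tested and 0 rose or fell. Pigr, the receptor that carries dimeric IgA across the epithelium, had 550 UMIs, 69.6% of them in epithelial-rich barcodes, and a log2 fold change of -0.28 (SE 0.62, edgeR adjusted p = 0.999). Ccl28, an epithelial chemokine that attracts IgA plasma cells, had 88 UMIs and stood at 0.75 (SE 0.57, edgeR adjusted p = 0.999). Tnfsf13, the survival ligand APRIL that binds the receptor made from Tnfrsf17, had 62 UMIs, and Cxcl12, Ccl25 and Itga4 had 25, 20 and 11. Pigr stood at 70 and 185 UMIs in corn oil mouse 3 and fish oil mouse 4 and at 75 and 53 in the 2 mice highest in Igha.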

How the data were processed

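The authors deposited un-normalized UMI counts, a gene by barcode matrix for each mouse, made with Cell Ranger 8.0.0 per the file headers. The submitters' processing notes name the builds mm10 and GRCm39. Whether barcodes were filtered further is not given in the sources used here. Text files paired gene IDs and barcode names with the counts; as the deposited files hold no coordinates, loci came from GENCODE M21 by gene ID.

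Counts were summed per mouse and tested in R 4.3.3 by edgeR 4.0.16 (low genes removed by filterByExpr at 5 counts, TMM scaling, robust quasi-likelihood F test, adjusted p under 0.05). On simulated counts of 3203 tested genes for this comparison, the test recovered 50% of 70 tested genes changed by 2 on the log2 scale. It recovered 100% of 65 changed by 4, with 4 false calls. Changed genes lost to the filter were not counted. These shares do not carry over to the 5 members that missed the filter, and give no recovery for Igha or Igkc singly. Cells of a mouse are not replicates, so barcode values have no p. Barcode intervals are exact at 95%. No library was a copy of another: over 28 pairs, chi-square divided by its degrees of freedom was 3.40 or more. No doublet caller was run. Alternatives were other scalings and filters, DESeq2 1.42.0, a block by mouse number, the pool, other barcode sets and leaving out each mouse. Genes named from a list are its up to 6 with the most UMIs, with others named where their barcode or low count is described; those others were chosen after their values were seen. The members and lists were chosen with earlier results of these data known.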

Additional observations from a re-analysis of the deposited data

Results flagged for a closer look

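In groups of 4 mice, a value was looked at again where its gap to the nearest other value was most of the group's range, past Dixon's 95% limit, which chance passes in about 1 of 20 groups. Of 24 groups tested, 6 held such a value. Corn oil mouse 1 stood apart in Igha, at 741 CPM, in Igkc, at 549, and in the smooth muscle list, at 2631. Fish oil mouse 2 stood apart in the smooth muscle list, at 2248 CPM. Corn oil mouse 3 stood apart in the share of barcodes with Jchain, 1.89%, which is 2 of 106 barcodes. Corn oil mouse 2 stood apart in the share with Mzb1, 0.446%, which is 2 of 448 barcodes.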

How the results depend on the processing

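Over 11 settings besides leaving out mice, Igha kept its direction in 11, from 0.01 to 1.71 on the log2 scale, and no gene of the 7 was called in any setting. In these settings the lowest adjusted p for Igha was 0.943, from edgeR without the count filter. With mice left out the lowest edgeR adjusted p for Igha was 0.858, without fish oil mouse 4. With each mouse left out in turn, Igha ranged from 0.28 to 3.48, Igkc from -0.39 to 2.63, Jchain from -0.50 to 1.38 and Mzb1 from -1.66 to -0.15, and the highest value of each came without corn oil mouse 1. Library totals alone turned Igkc to -0.41 and Jchain to -0.094, leaving out each mouse's richest barcode turned Jchain to -0.13, and the pool turned Mzb1 to 0.20. The cause was not tested. Same-numbered mice did not deviate together in every pair (correlations of 0.19, -0.20, -0.08 and 0.26 over 4471 genes), so the numbers were not taken as a pairing. The block by mouse number gave 1.71 (SE 1.39) for Igha and 1.14 (SE 0.85) for Igkc and called 0 genes, with 131 at an unadjusted p under 0.05. Genes called went from 0 to 4 without the count filter (18121 genes tested), and from 0 to 1 over the leave-one-out fits. The 17 barcodes with at least 2 members became 2 after thinning to 100 UMIs, 6 without Igkc, 2 without Igha, 3 when at least 2 UMIs of each were needed, and, chosen after seeing the data, 9 at 100 UMIs or more and 11 without corn oil mouse 1. Igha in the rest of fish oil mouse 4 went from 350 to 79.9 CPM without 1 barcode. At 2 to 17 UMIs a diet difference in the 5 rarer genes was not detectable.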
